A study of Mus musculus with 29 samples.

Results

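The Fkbp5 locus was taken as the 200 kb of mouse chromosome 17 between 28.48 and 28.68 Mb (mm9), and every peak or border with its centre in that window was a member. The peaks of the 6 glucocorticoid receptor (GR) ChIP-seq lists formed 19 regions in the window, of 15329 in the genome, after peaks that overlapped by at least 1 bp had been merged. They are numbered 1 to 19 along the chromosome. All livers came from male mice aged 12 weeks, on a BALB/c back-cross and kept under a 12 h light and dark cycle. The GRdim mice carry a GR mutation that impairs dimerization of the receptor, in every cell that expresses it, and the WT mice were littermates with the GR+/+ genotype. GR was profiled in GRdim and WT livers after prednisolone, at 6pm and at 6am, by ChIP-seq and by ChIP-exo, and C/EBPβ was profiled by ChIP-seq in WT livers under the same conditions. Prednisolone, a synthetic glucocorticoid, was given as subcutaneous pellets at 12 mg/kg for 24 h, with collection at 6am. Each list was a pool of 2 replicates, so the values carry no error between animals and no test between conditions was possible. The tissue was whole liver, with no marker of cell type measured in these files, and fewer bound cells and less binding per cell cannot be told apart.

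Fkbp5 encodes FKBP51, a co-chaperone of Hsp90 that associates with the unliganded GR complex and lowers its affinity for hormone. Glucocorticoids induce the gene, which closes a short negative feedback loop on the receptor, and distal and intronic GR binding sites are known for it in several tissues. GR binds palindromic elements as a dimer, with a receptor on each arm of the palindrome. C/EBPβ is a leucine zipper transcription factor that is abundant in hepatocytes. In the RefSeq annotation of a later build (GRCm38.p6) the neighbouring protein-coding genes are Tead3 and Tulp1 on the side of lower coordinates and Armc12, Clpsl2 and Clps on the other. Placement of the regions in exons, introns or promoters is not given, since no mm9 annotation was used here.

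The WT livers held most GR peaks of the locus, and the regions at its 2 ends stood out. The window held 4 GR peaks in GRdim livers after prednisolone, 5 at 6pm and 1 at 6am, against 11, 13 and 7 in WT livers in the same order of conditions. The lists differ in length, and cut to the top 3183 scores each, the length of the shortest list, they held 2 peaks in GRdim and 7 in WT at 6pm, while WT kept 11 after prednisolone. Of the 19 regions, 12 had peaks only in WT livers, 7 had peaks in both genotypes and 0 only in GRdim livers. This split was not computed over all 15329 regions. Per condition, 51.5%, 50.6% and 52.5% of all WT peaks lacked a GRdim peak after prednisolone, at 6pm and at 6am. The regions spanned 103 kb, and regions 14 to 19 lay within 10.5 kb of each other. Of 2246 bins of 200 kb with a peak in the WT prednisolone list, 7 held as many as the 11 of this window. At 6pm 73 of 4206 bins of the WT list held at least 13 peaks, and at 6am 95 of 2535 held at least 7. In the GRdim lists the window was less exceptional, since 160 of 1845 bins held at least 4 peaks after prednisolone and 394 of 2970 held at least 5 at 6pm.

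Region 14, at chr17:28649745-28650003, had the highest score of the window in 5 of the 6 GR lists, and in the sixth, GRdim at 6am, it was not listed. The score is the authors' own value per peak, and its unit is not stated. It is used to describe and rank peaks within a list. Region 14 scored 5.76 in GRdim livers after prednisolone and 6.64 at 6pm, against 19.14, 22.44 and 11.68 in WT livers after prednisolone, at 6pm and at 6am. In WT it ranked 8 of 4304 peaks after prednisolone, 8 of 14270 at 6pm and 93 of 5781 at 6am. In GRdim it ranked 65 of 3208 peaks after prednisolone and 269 of 7440 at 6pm. It was therefore near the top of every list that held it.

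Region 1, at chr17:28557157-28557384, was the second strongest in the WT prednisolone and 6pm lists and lies 92.6 kb from region 14, between centres. It scored 2.12 in GRdim livers after prednisolone and was not listed in them at 6pm or 6am. The WT scores of region 1 were 15.57 after prednisolone, 17.17 at 6pm and 8.07 at 6am. Region 17, at chr17:28654987-28655201, scored 2.67 in GRdim livers at 6pm alone, against 11.37 after prednisolone, 9.24 at 6pm and 9.02 at 6am in WT livers. These 3 regions were listed in every WT list and in at least 1 GRdim list.

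Region 19 at chr17:28660021-28660233 and region 8 at chr17:28579262-28579470 belonged to all 3 WT lists, and GRdim livers had no peak at either. Region 19 scored 11.67 after prednisolone, 9.87 at 6pm and 7.31 at 6am in WT livers. Region 8 scored 6.61, 6.69 and 3.65 in WT livers under the same conditions. Region 19 stayed within the higher-scoring 5.67% of each WT list, whereas region 8 stood at 10.4%, 12.1% and 30.4% from the top.

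After prednisolone, the WT list held a group of peaks beside region 14 that scored low or were not listed in WT at 6pm and 6am. Region 18, at chr17:28655904-28656108, scored 8.89 after prednisolone and 2.06 at 6am in WT livers, and it was not listed at 6pm. Regions 15 and 16, at chr17:28650755-28650954 and chr17:28652960-28653159, were listed in WT after prednisolone alone, with scores of 6.19 and 6.61. Region 2, at chr17:28561440-28561639 with its centre 4.27 kb from that of region 1, was also listed in that list alone, with a score of 6.72. None of these 4 regions was listed in GRdim livers. Region 11 was the remaining region of the WT prednisolone list alone, with a score of 2.44. Region 12, at chr17:28635120-28635426, was listed after prednisolone in both genotypes, with scores of 2.01 in GRdim and 2.40 in WT.

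Other regions were listed at 6pm. Region 7, at chr17:28578620-28578843, scored 2.27 after prednisolone and 3.23 at 6pm in GRdim livers, against 5.92 at 6pm in WT livers. It was the only GRdim peak of the locus without a WT peak in the same condition, after prednisolone. Region 3, at chr17:28565913-28566146, scored 2.60 at 6pm and 2.31 at 6am in GRdim livers, against 6.69 at 6pm and 3.39 at 6am in WT livers. It was the only region of the locus in the GRdim list at 6am and was absent after prednisolone in both genotypes. Region 6, at chr17:28575418-28575625, scored 2.00 at 6pm in GRdim and 3.58 at 6pm in WT. Regions 4, 5, 9, 10 and 13 were listed in WT at 6pm alone, with scores between 2.12 and 4.75. They ranked between 3780 and 13251 of 14270, so none was within the top 3183 scores of this longest GR list. Regions 5, 10 and 13 also held WT ChIP-exo borders in another condition. Region 9 held 1 border, at 6pm, and region 4 held none.

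**Figure D1:**
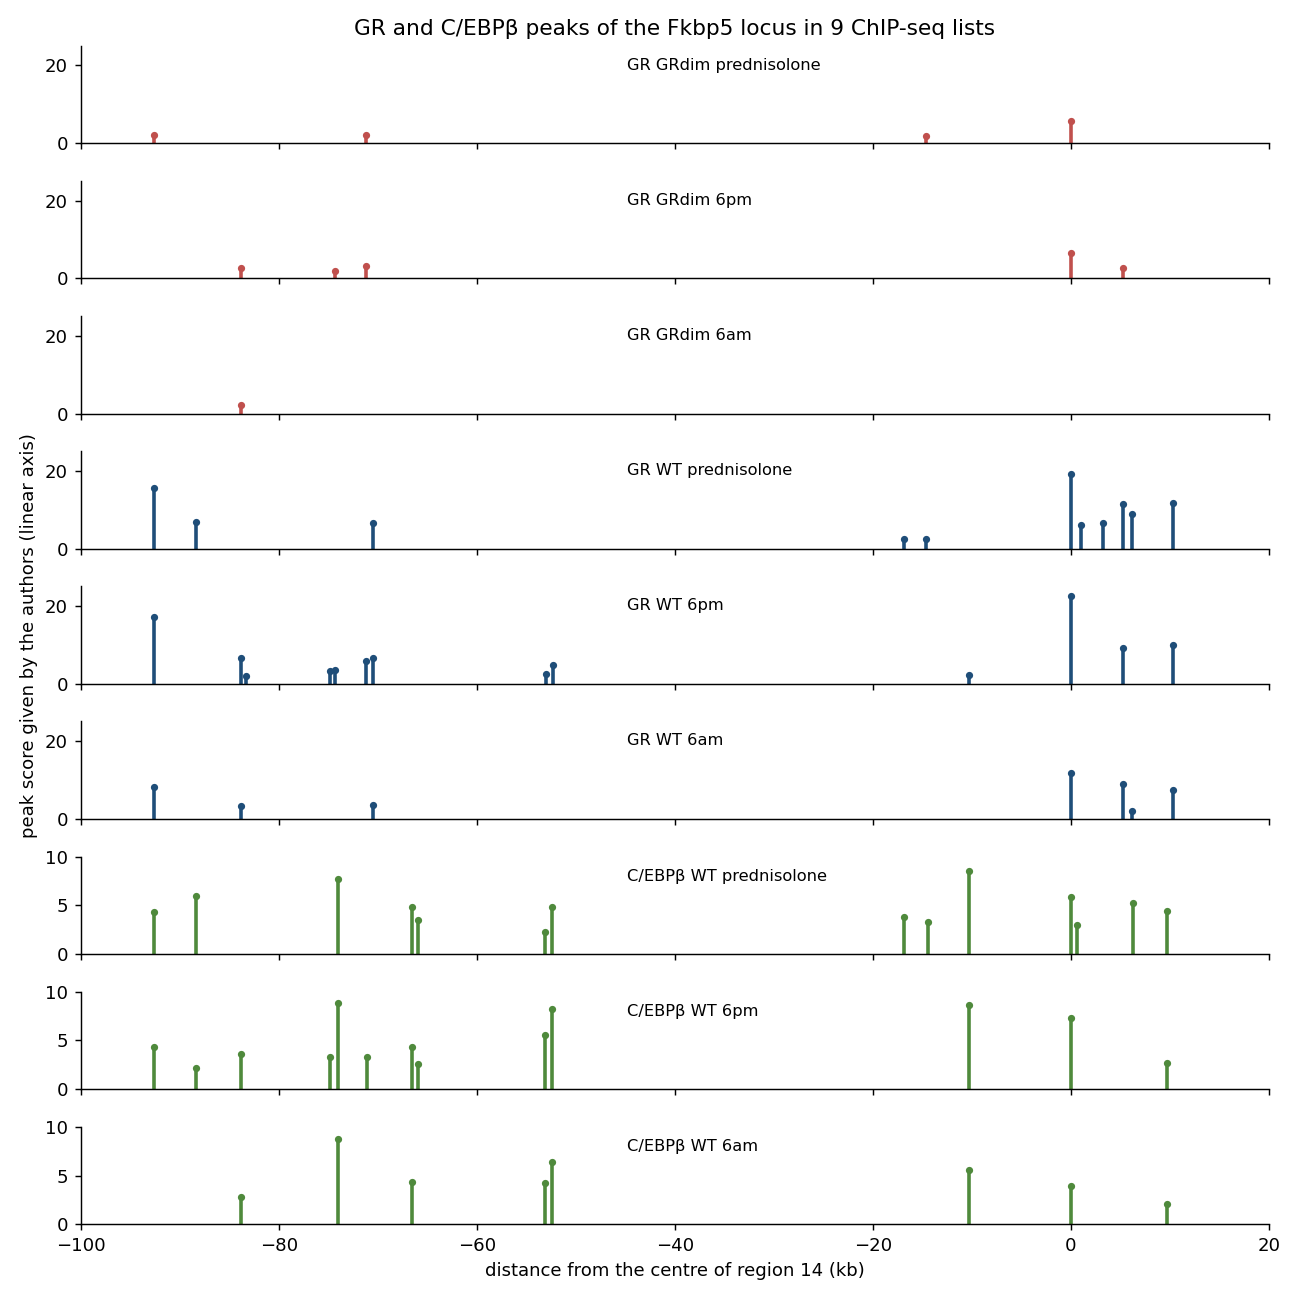
Peaks of the 3 GR lists of GRdim livers, the 3 GR lists of WT livers and the 3 C/EBPβ lists of WT livers, each as a stem at its distance in kb from the centre of region 14 (horizontal axis), with the authors' score as height (vertical axis). The highest GR peak is region 14 at 0 kb, and the WT prednisolone list holds 6 peaks from 0 kb to the right, where the GRdim prednisolone list holds 1.

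Set against the whole lists, the locus held a somewhat larger share of WT peaks without a GRdim counterpart. After prednisolone 8 of the 11 WT peaks of the window were absent from the GRdim list, against 51.5% of all WT peaks in that condition. At 6pm 8 of 13 were absent, against 50.6%, and at 6am 6 of 7, against 52.5%. In the other direction 1 of 4 GRdim peaks was absent from WT after prednisolone, against 34.9% of the whole list. At 6pm 0 of 5 GRdim peaks were absent from WT, against 5.34%, and at 6am 0 of 1, against 13.8%. With counts this small the share at 6pm stood close to that of the list. The lists begin at a score of about 2, so that an absent peak may be a weak one, and several GRdim peaks of the window lay close to that lower end.

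The WT prednisolone list held a larger share of peaks not listed at 6am in the window than over the whole list, on small counts. In WT 5 of 11 prednisolone peaks were absent at 6am, against 25.8% of the list, and they were regions 2, 11, 12, 15 and 16. Regions 11 and 12 scored 2.44 and 2.40, near the lowest score of that list, 2.03. Regions 2 and 15, though not listed as peaks at 6am, held ChIP-exo borders then in WT, with 13 and 93 tags. Of the 7 peaks of the WT list at 6am, 1 (region 3) was absent after prednisolone, against 44.8% of the list. At 6pm 7 of 13 WT peaks were absent at 6am, against 60.5% of the list, and 1 of 7 peaks at 6am (region 18) was absent at 6pm, against 2.49%. In GRdim livers 4 of 4 prednisolone peaks were absent at 6am, against 35.7% of the list, and 4 of 5 peaks at 6pm were absent at 6am, against 60.2%. The single GRdim peak at 6am was absent after prednisolone, against 35.2% of the list, and present at 6pm, where 7.07% of that list were absent. The comparisons with 6am share the same list at 6am.

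ChIP-exo resolved the same regions at the level of single bases. In this assay an exonuclease trims the immunoprecipitated DNA up to the crosslinked protein, and the files list borders of 10 bp on each strand with their tag counts. A border is named here by its first base. The libraries held about 45200000, 43800000 and 31600000 tags for GRdim after prednisolone, at 6pm and at 6am, and 54700000, 43100000 and 55700000 tags for WT. The authors' RPM value is the number of tags per 1000000 tags of the library. The window held 48, 22 and 6 borders in the GRdim libraries, against 255, 112 and 119 in the WT libraries. Their tags summed to 17.6, 9.29 and 2.21 RPM in GRdim and to 265, 157 and 95.5 RPM in WT. The part of depth in these sums was not tested.

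Borders joined within 3 bp across libraries gave 379 positions, of which 319 were listed in WT libraries alone, 22 in GRdim alone and 38 in both. A single library listed 280 of them, and 1 position was listed in all 6 libraries. The split by genotype was not computed over the genome. In all, the GRdim libraries listed 35220, 35658 and 14391 borders after prednisolone, at 6pm and at 6am. The WT libraries listed 49189, 54636 and 66573. Borders lay within 100 bp of the centre at 9, 7 and 4 of the 19 regions in GRdim, and at 13, 15 and 13 in WT. Over ChIP-seq peaks of the same condition this was 4 of 4, 4 of 5 and 1 of 1 GRdim peaks, against 97.0%, 81.9% and 77.2% of the whole lists. For WT it was 11 of 11, 12 of 13 and 7 of 7 peaks, against 95.2%, 76.8% and 97.5%. The peaks without a border were region 3 in GRdim at 6pm and region 4 in WT at 6pm. Regions without a listed peak could still hold borders, which was so for 5, 3 and 3 regions in GRdim and for 2, 3 and 6 in WT.

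At the strongest regions the listed tags were far fewer in GRdim livers. Borders of like rank in the whole library also held fewer tags in GRdim. At 6pm rank 9 held 108 tags in GRdim, and rank 6 held 621 in WT. After prednisolone rank 18 held 90 tags in GRdim, and rank 23 held 529 in WT. No ratio over all borders was computed, so whether the ratios below are particular to the locus was not tested. Sums within 100 bp run over borders called separately in each library, so a border missing from a list adds nothing. The ratio over border positions listed in both libraries is therefore given beside the ratio of the sums. It leaves out positions listed in a single library. The 95% intervals below are exact and cover counting error alone, and tags without molecular identifiers are not independent molecules. Within 100 bp of the centre of region 14 there were 7.0 RPM over 17 borders in GRdim after prednisolone and 2.69 over 8 borders at 6pm. No border of region 14 was listed in GRdim at 6am. WT had 45.3 RPM over 17 borders after prednisolone, 44.0 over 17 at 6pm and 19.7 over 19 at 6am. The ratio of GRdim to WT at region 14 was 0.154 (0.137 to 0.174) after prednisolone, with equal numbers of borders, and 0.0613 (0.0504 to 0.0738) at 6pm. At the 8 and 5 positions listed in both genotypes it was 0.137 (0.115 to 0.162) and 0.0993 (0.0776 to 0.125).

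At region 1 the sums differed more. It had 0.996 RPM over 4 borders in GRdim after prednisolone and no border at 6pm or 6am. WT had 30.2 RPM over 16 borders, 28.6 over 14 and 8.99 over 11 in the order prednisolone, 6pm and 6am. The ratio of GRdim to WT after prednisolone was 0.0330 (0.0239 to 0.0443), and 0.0677 (0.0490 to 0.0914) at the 4 positions listed in both. Region 19, which no GRdim ChIP-seq list held, had 1 border in GRdim after prednisolone and 1 at 6pm, with 0.221 and 0.251 RPM. WT had 22.3, 15.8 and 10.8 RPM there over 17, 11 and 13 borders. The ratio of the sums, GRdim to WT, was 0.00993 (0.00475 to 0.0183) after prednisolone and 0.0159 (0.00788 to 0.0285) at 6pm, over 1 border in GRdim and 17 or 11 in WT. At the 1 position listed in both genotypes the ratio was 0.115 (0.0537 to 0.221) after prednisolone and 0.197 (0.0929 to 0.380) at 6pm. Region 8 had no border in any GRdim library, against 8.54, 3.94 and 2.87 RPM in WT.

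Regions 3, 5, 6, 7, 10, 12 and 13 had low tag numbers and, where both genotypes listed borders, smaller differences between them. Region 7 had 1.68, 0.753 and 0.316 RPM in GRdim over 6, 3 and 1 borders, against 0.914, 2.41 and 0.179 in WT over 3, 5 and 1 borders. The ratio of GRdim to WT there was 1.84 (1.27 to 2.68) after prednisolone and 0.312 (0.204 to 0.466) at 6pm. At the 2 positions listed in both genotypes after prednisolone it was 0.969 (0.568 to 1.64), and at the 1 position at 6pm 0.373 (0.168 to 0.770). At 6am it was 1.76, with an interval of 0.658 to 4.71 that includes equality. At region 10 the ratio at 6pm was 1.66 (0.863 to 3.30), on 27 tags in GRdim and 16 in WT. At region 5 it was 0.681 (0.257 to 1.72) at 6pm, on 9 and 13 tags. A difference at regions 5 and 10 at 6pm was not detectable at this depth. At 6am WT had 34 tags at region 10 and 16 at region 5, and no border was listed there in GRdim. Region 6 had 1.02 RPM over 4 borders in GRdim after prednisolone, where no border was listed in WT, and a ratio of GRdim to WT of 0.357 (0.216 to 0.571) at 6pm and 0.252 (0.104 to 0.531) at 6am. At the 1 position of region 6 listed in both genotypes the ratio was 1.37 (0.716 to 2.66) at 6pm and 0.640 (0.247 to 1.49) at 6am. At region 3 the ratio at 6am was 0.380 (0.219 to 0.630), and 1.28 (0.447 to 3.50) at the 1 shared position. At 6pm region 3 had 3.29 RPM in WT and no border in GRdim. After prednisolone the ratio was 0.472 (0.304 to 0.719) at region 12 and 0.515 (0.289 to 0.887) at region 13. At their 1 shared position each it was 1.54 (0.650 to 3.75) and 1.11 (0.444 to 2.75).

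**Figure D2:**
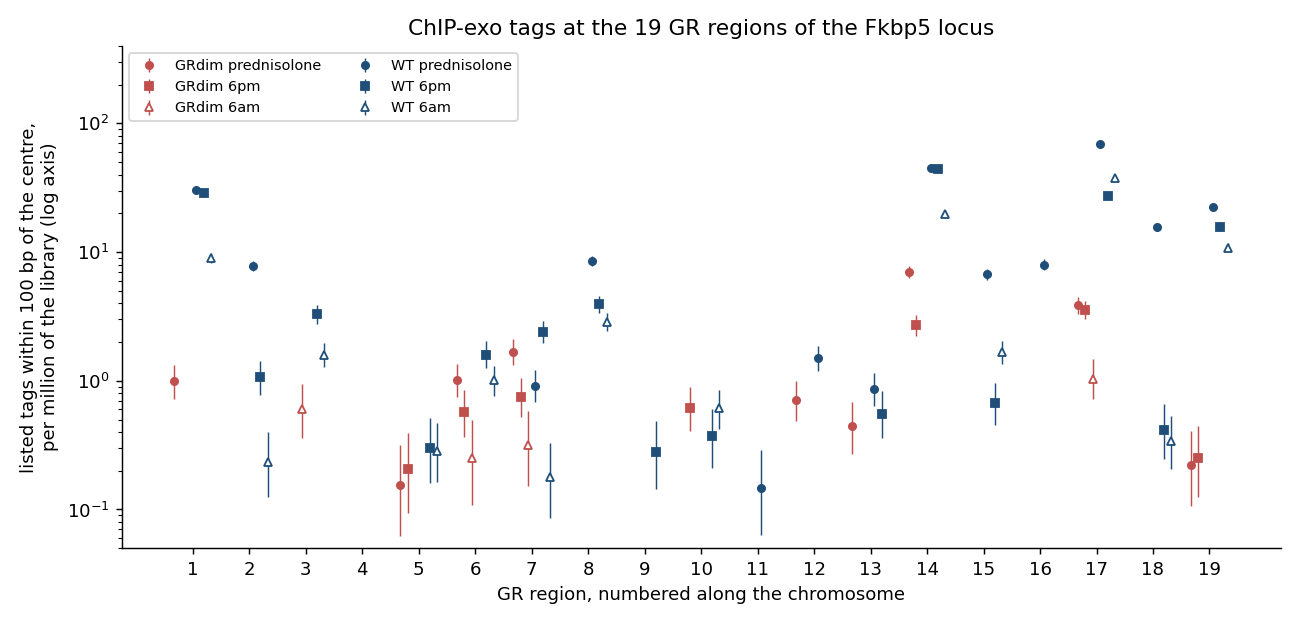
Listed ChIP-exo tags within 100 bp of the centre of each of the 19 GR regions, in RPM (log axis), for 3 GRdim and 3 WT libraries, with exact Poisson 95% intervals as bars; libraries with no border listed at a region have no point there. At regions 1, 14, 17 and 19 every GRdim point lies below every WT point, from 0.221 to 7.0 against 8.99 to 69.5 RPM.

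Between conditions, regions 2, 16 and 18 had far more listed tags in WT after prednisolone than at 6am. Region 18 had 15.6 RPM over 14 borders after prednisolone, 0.417 over 1 border at 6pm and 0.341 over 2 borders at 6am in WT. The ratio of prednisolone to 6am at region 18 was 45.6 (29 to 76.2) over the sums and 15.1 (7.70 to 33.6) at the 1 position listed in both libraries. Region 2 had 7.83, 1.07 and 0.233 RPM in WT under the same conditions, over 11, 3 and 1 borders. The ratio of prednisolone to 6am at region 2 was 33.5 (19.4 to 63.5) over the sums and 9.17 (5.16 to 17.7) at the 1 position listed in both. Region 16 had 7.99 RPM over 11 borders after prednisolone, and no border of it was listed at 6pm or 6am. Region 15 differed less, with a ratio of prednisolone to 6am of 4.03 (3.20 to 5.12) and 3.57 (2.83 to 4.55) at the 4 positions listed in both. Its ratio of 6pm to 6am was 0.403 (0.256 to 0.617) over the sums and 0.872 (0.525 to 1.43) at the 1 position listed in both, an interval that includes equality. Region 7 had a ratio of 6pm to 6am in WT of 13.4 (7.02 to 28.9) over 5 and 1 borders, and 3.75 (1.78 to 8.62) at the 1 position listed in both.

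The regions listed in all 3 WT lists moved less. The ratio of prednisolone to 6am in WT was 3.36 (3.04 to 3.72) at region 1, 2.97 (2.48 to 3.58) at region 8, 2.31 (2.15 to 2.48) at region 14 and 2.06 (1.87 to 2.28) at region 19. The ratio of 6pm to 6am was 3.18 (2.86 to 3.53) at region 1 and 2.24 (2.08 to 2.41) at region 14, close to the ratios after prednisolone. At region 18 the ratio of 6pm to 6am was lower, 1.22 (0.606 to 2.46). At region 2 this ratio was 4.57 (2.43 to 9.23) over the sums and 1.49 (0.662 to 3.41) at the 1 position listed in both. Over the sums it was 1.37 (1.10 to 1.71) at region 8, over 5 and 8 borders, and 1.47 (1.31 to 1.64) at region 19, over 11 and 13 borders. At positions listed in both libraries the ratio of 6pm to 6am was 1.93 (1.45 to 2.59) at region 8 and 1.61 (1.39 to 1.86) at region 19. It was 2.98 at region 1 and 2.29 at region 14. The ratio of prednisolone to 6am at such positions was 3.04, 2.88, 2.30 and 1.80 at regions 1, 8, 14 and 19. Region 17 had fewer tags at 6pm than at 6am in WT, with a ratio of 0.717 (0.667 to 0.771), and more after prednisolone, with 1.83 (1.74 to 1.94). In GRdim the ratio of 6pm to 6am at region 17 was 3.41 (2.33 to 5.13) and that of prednisolone to 6am was 3.69 (2.53 to 5.53), on 33 tags at 6am. The comparisons with 6am share 1 library at 6am in each genotype.

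Region 17 held the position listed in all 6 libraries, a minus-strand border at 28655142. It had 90, 108 and 20 tags in GRdim livers after prednisolone, at 6pm and at 6am, against 1919, 621 and 1130 tags in WT livers. Among the borders of each library outside the mitochondrial genome it ranked 1 of 48351 in WT after prednisolone, 6 of 53788 at 6pm and 2 of 65707 at 6am. In GRdim it ranked 18 of 34348 after prednisolone, 9 of 34812 at 6pm and 1084 of 13552 at 6am. This border was among the strongest of the genome in 5 of the 6 libraries, although the GRdim ChIP-seq lists held a peak there at 6pm alone. In RPM, its ratio of GRdim to WT was 0.0568 (0.0454 to 0.0702) after prednisolone, 0.171 (0.138 to 0.210) at 6pm and 0.0312 (0.0190 to 0.0484) at 6am.

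The tags of region 17 were lopsided between strands. The border at 28655142 or 28655143 held 51.7%, 69.2% and 60.6% of the listed tags of the region in GRdim, and 50.5%, 53.0% and 53.5% in WT. The strongest plus-strand border held 8.62% in GRdim after prednisolone and 9.62% at 6pm, against 4.55%, 6.06% and 5.35% in WT. A further minus-strand border at 28655123 had 33 tags in GRdim after prednisolone and 33 at 6pm, against 729, 258 and 383 in WT. The same border therefore led region 17 in every library of both genotypes, whatever the total.

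**Figure D3:**
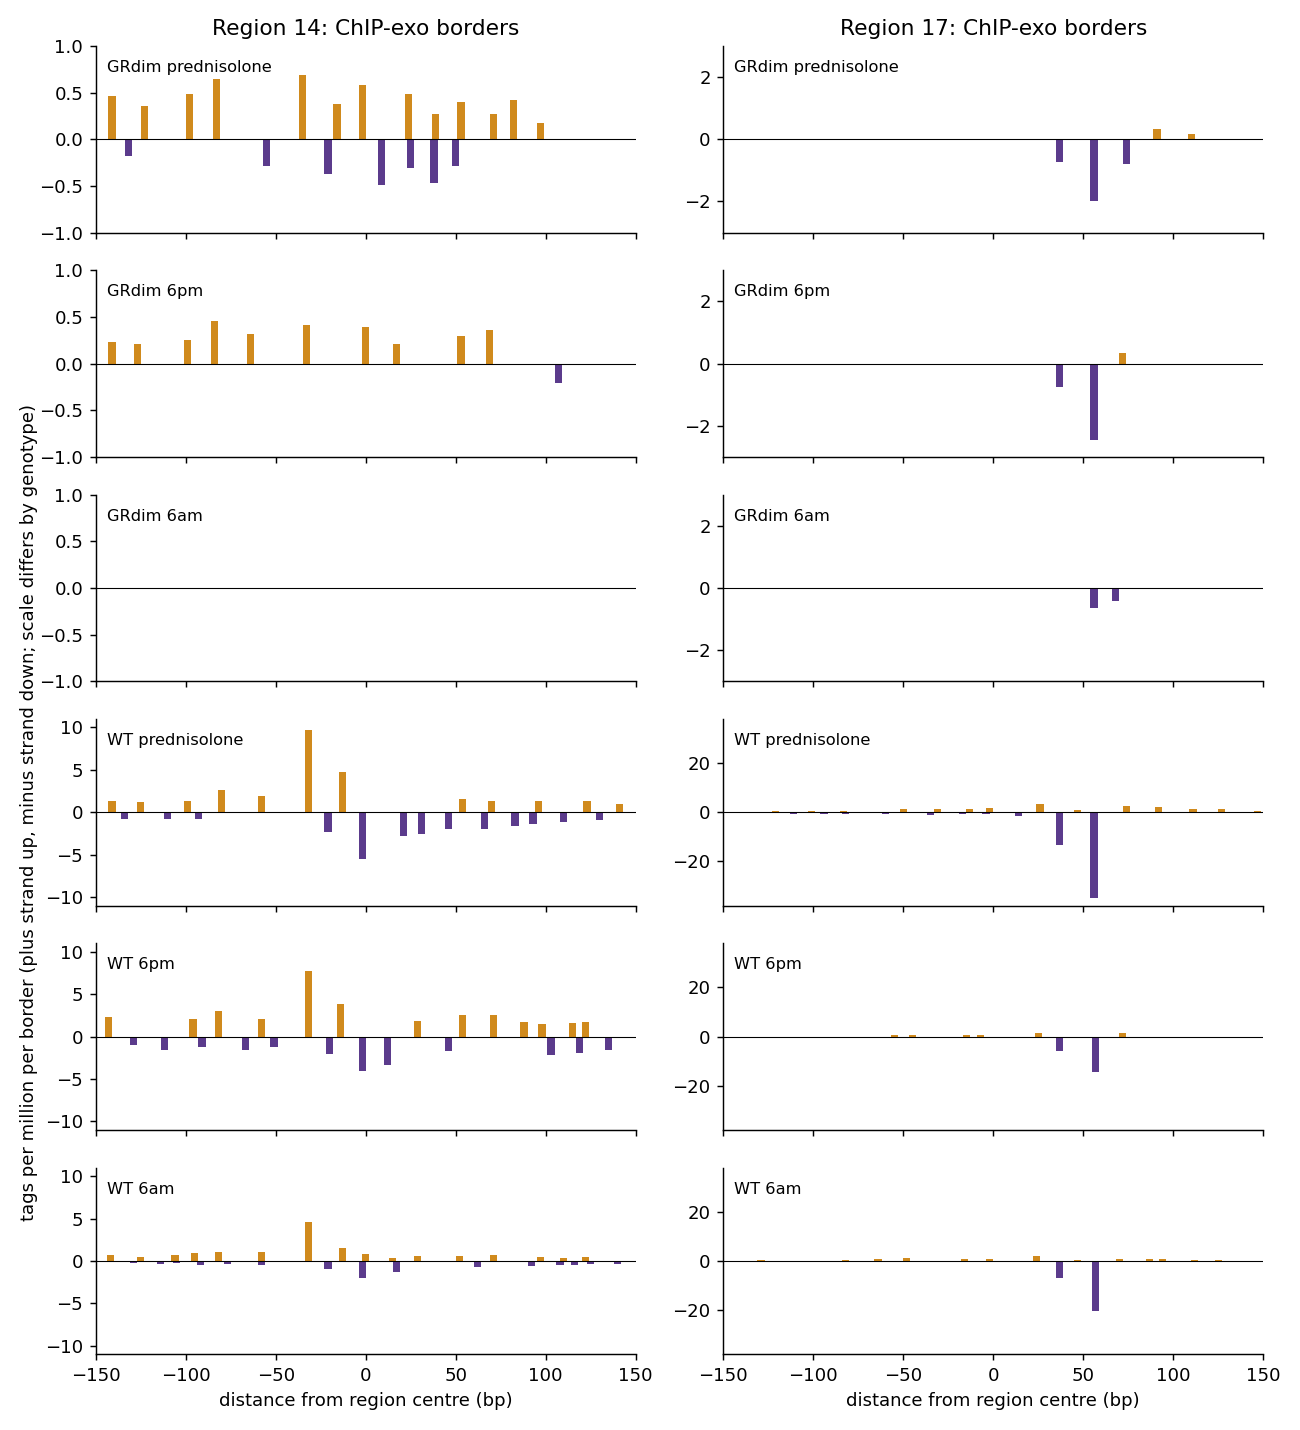
ChIP-exo borders around the centres of region 14 (left) and region 17 (right) in 3 GRdim and 3 WT libraries, in RPM per border, with the plus strand drawn upward, the minus strand downward and a vertical scale that differs between genotypes. Region 17 has the same leading minus-strand border in all 6 libraries, and region 14 has its leading plus-strand border 32 bp left of the centre in the 3 WT libraries.

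The spacing of borders was measured as the position of the strongest minus-strand border less that of the strongest plus-strand border within 100 bp of the centre. At region 14 it was 44 bp in GRdim after prednisolone, and 30 bp in each of the 3 WT libraries. The WT pair was the plus border at 28649827, with 529, 331 and 257 tags after prednisolone, at 6pm and at 6am, and the minus border at 28649857, with 304, 173 and 115 tags. At 28649827 GRdim had 31 tags after prednisolone and 18 at 6pm, and the ratio of GRdim to WT in RPM was 0.0709 (0.0477 to 0.102) and 0.0535 (0.0313 to 0.0859).

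In WT after prednisolone the strongest borders lay 29 to 31 bp apart at regions 2, 14, 15, 17, 18 and 19. Taking the closest opposite borders 10 to 60 bp apart in place of the strongest, which takes the shortest pair by construction, no region of any WT library had this spacing. By the strongest borders these were 6 of 10 peaks of the window with borders on both strands, against 13.1% of such peaks in the whole list. High-scoring peaks held this spacing more often, in 29.1% of those in the higher-scoring 15% of the list, a limit set after the window's scores had been seen, and there the window held 6 of 9. The other WT libraries showed it at region 14 alone, in 1 of 8 peaks at 6pm and 1 of 6 at 6am, against 6.18% and 9.12% of their lists. Regions 17 and 19 were at 33 and 32 bp at 6am. In GRdim no peak of the window showed 29 to 31 bp, of 4 after prednisolone, 3 at 6pm and 1 at 6am, against 2.24%, 2.31% and 2.39% of the lists. The GRdim distances over regions lay between -35 and 44 bp, where a negative value means that the minus border came first. In WT they lay between 10 and 31 bp after prednisolone, -15 and 92 bp at 6pm and 11 and 62 bp at 6am. The negative distances were at region 17, with -35 bp after prednisolone and -16 bp at 6pm in GRdim, and -15 bp at 6pm in WT. In the whole lists 13.7% to 17.9% of such peaks had a negative distance in GRdim, and 12.4% to 16.4% in WT.

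Between the strongest borders, a shorter spacing of 10 to 12 bp was found at regions 1, 8 and 16 in WT after prednisolone. This was 3 of 10 peaks, against 13.6% of the list. At 6am it was found in 2 of 6 WT peaks, regions 3 and 8, against 10.3%, and at 6pm in 0 of 8, against 5.38%. In GRdim 0 of 4, 0 of 3 and 0 of 1 peaks had it after prednisolone, at 6pm and at 6am, against 5.52%, 3.39% and 5.79%. An intermediate spacing of 24 to 26 bp was found in GRdim at region 7 at 6pm, 1 of 3 peaks against 4.47%. That case rests on a tie, since minus borders at 28578726 and 28578760 had 11 tags each and the lower position was taken. This spacing was found in 0 of 4 GRdim peaks after prednisolone, against 6.10%, and in 0 of 1 at 6am, against 5.43%. In WT it was found in 0 of 10, 0 of 8 and 0 of 6 peaks, against 3.43%, 2.74% and 4.17%. Region 10, without a listed peak in WT at 6am, had its strongest borders 25 bp apart there, with 14 and 10 tags. These counts take only the strongest border of each strand. Among all opposite borders with at least 20 tags each, pairs 10 to 12 bp apart occurred at 9, 3 and 5 regions in WT. In GRdim such a pair occurred at 1 region after prednisolone, region 14, with 26 and 22 tags. Pairs 24 to 26 bp apart occurred at 1, 1 and 3 regions in WT and at no region in GRdim. Between the strongest borders, region 8 kept a distance of 10 to 13 bp in all 3 WT libraries. At region 1 the strongest plus border, at 28557254, had 346, 216 and 97 tags in the 3 WT libraries and 12 in GRdim after prednisolone. The strongest minus border was 11 bp from it after prednisolone, while another, 37 or 38 bp away, was the strongest at 6pm and 6am. Both minus borders were listed in all 3 WT libraries. The nearer had 220, 131 and 59 tags and the farther 198, 179 and 92.

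The short and the long spacing occurred together in a series of 4 borders. From the strongest plus border, a minus border followed at 10 to 13 bp, a second plus border at 16 to 21 bp and a second minus border at 28 to 32 bp. These limits were set after the borders of the window had been seen, so the count below describes it and the share of the list is the context. The series was complete in WT after prednisolone at regions 2, 14, 15, 17, 18 and 19. This is 6 of 10 peaks with a plus border, against 8.61% of the list. Within the higher-scoring 15% of the list the window held 6 of 9, against 33.7%. At 6pm the series was complete at region 14, 1 of 10 peaks against 1.75%. At 6am it was complete at regions 14 and 19, 2 of 7 peaks against 4.52%, and also at region 15, which held no listed peak then. In GRdim it was complete at no region of the window, against 0.176%, 0.300% and 0.260% of the lists after prednisolone, at 6pm and at 6am.

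Region 14 shows the series in numbers. In WT after prednisolone its 4 borders had 529, 128, 260 and 304 tags at 0, 11, 19 and 30 bp. At 6pm they had 331, 90, 167 and 173 tags at 0, 12, 18 and 30 bp, and at 6am 257, 56, 88 and 115 tags at 0, 11, 19 and 30 bp. In GRdim after prednisolone the strongest plus border, at 28649824, had 31 tags and the plus border 19 bp on had 17. A minus border at 28649838, the place of the first minus border in WT, had 17 tags in GRdim and 128 in WT, but lay 14 bp from the GRdim plus border and so outside the limits. No minus-strand border was listed in GRdim at the second minus place, 28649857, where a plus-strand border had 26 tags after prednisolone. At 6pm the strongest plus border of region 14 in GRdim was at 28649775, outside the series. The GRdim libraries had far fewer tags at this region, and a border below the threshold of the list is not seen.

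**Figure D4:**
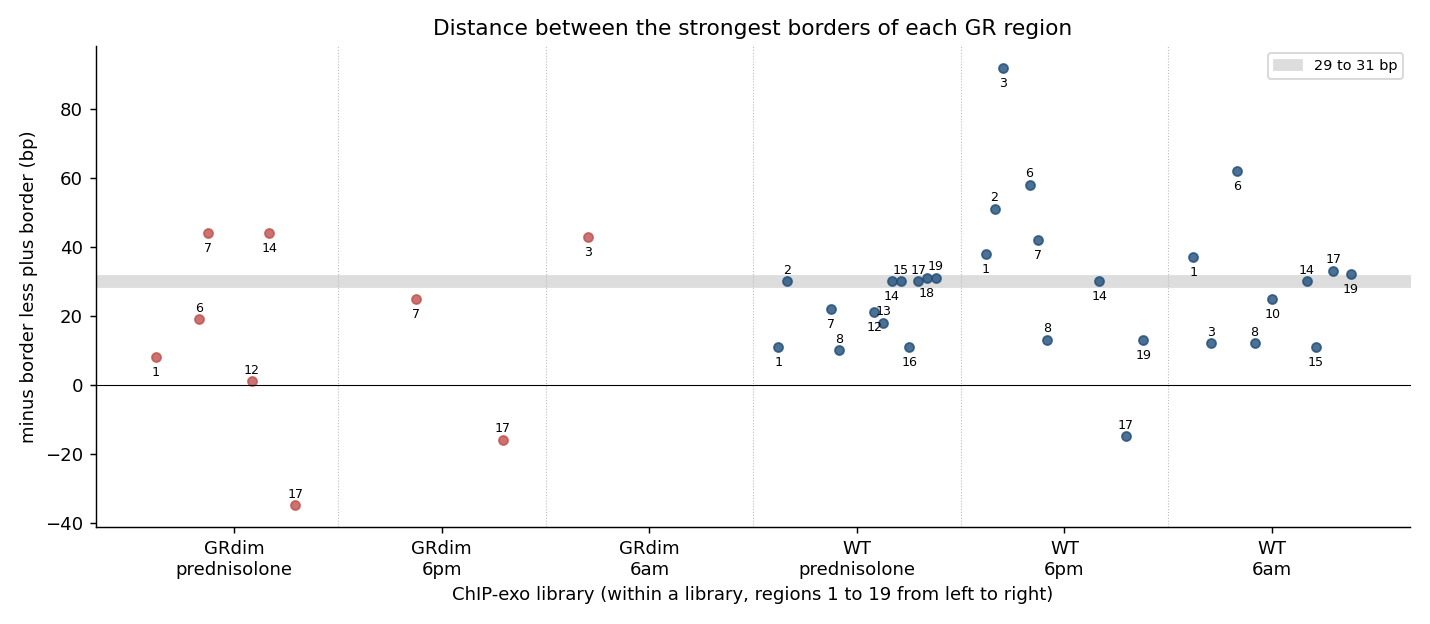
Distance in bp from the strongest plus-strand to the strongest minus-strand border at each GR region with both (vertical axis), by ChIP-exo library, each point with its region number. In WT after prednisolone 6 regions lie in the grey band of 29 to 31 bp, and no GRdim point does.

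C/EBPβ formed 17 regions in the window over its 3 WT lists, with 14 peaks after prednisolone, 13 at 6pm and 8 at 6am. Of these, 12 overlapped a GR region and 7 were listed in all 3 conditions. Conversely 12 of the 19 GR regions overlapped a C/EBPβ peak in some condition, and 4 of them (regions 9, 10, 13 and 14) did so in all 3. The WT GR peaks of the locus coincided with C/EBPβ in the matching condition less often than the lists as a whole, at 6 of 11 after prednisolone against 75.7%, 8 of 13 at 6pm against 83.2% and 2 of 7 at 6am against 79.7%. No test was made of that difference. With centres within 100 bp in place of an overlap, the counts were 4 after prednisolone, 8 at 6pm and 2 at 6am. Taken from the side of C/EBPβ, 6 of 14 peaks after prednisolone, 8 of 13 at 6pm and 2 of 8 at 6am held a GR peak, against 14.8%, 45.3% and 21.3% of the whole lists.

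The strongest GR regions differed in their C/EBPβ peaks. Region 14 overlapped a C/EBPβ peak that scored 5.82 after prednisolone, 7.28 at 6pm and 3.94 at 6am. Region 1 overlapped one that scored 4.31 after prednisolone and 4.35 at 6pm, and none at 6am. Regions 8, 17 and 19, each in all 3 WT GR lists, overlapped none. The C/EBPβ peak nearest to region 19 lay 508 bp away, with scores of 4.45, 2.67 and 2.09, and that nearest to region 8 lay 610 bp away at 6pm.

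Of the 5 regions with a WT GR peak after prednisolone and not at 6am, 3 gained a C/EBPβ peak in the same comparison, against 22.1% of such GR peaks in the whole list. Regions 2, 11 and 12 had C/EBPβ scores of 5.96, 3.81 and 3.30 after prednisolone and no C/EBPβ peak at 6am, and regions 15 and 16 had none in either list. Between centres, these C/EBPβ peaks lay 64, 30 and 156 bp from regions 2, 11 and 12. Region 18, which was listed for GR in both conditions, had a C/EBPβ peak after prednisolone alone, with a score of 5.28. The centre of that peak lay 159 bp from that of region 18. In all, 7 of the 14 C/EBPβ peaks after prednisolone were absent at 6am, against 22.3% of that list, and 5 of 13 at 6pm were absent at 6am, against 22.9%. In contrast, regions 9, 10 and 13 held C/EBPβ peaks in all 3 lists, with scores between 2.30 and 8.62. Their GR peaks were listed in WT at 6pm alone, outside the top 3183 scores of that list. The highest C/EBPβ scores of the window outside any GR region were 7.65, 8.84 and 8.72 after prednisolone, at 6pm and at 6am, at chr17:28575742-28575956.

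Likeness to region 14 was measured over the 266 GR regions outside the window that were listed in the same 5 lists, as the summed difference of their percentile ranks of score. The nearest was chr16:4829287-4829500, with a sum of 14 percentage points. It scored 4.68 after prednisolone and 5.62 at 6pm in GRdim, and 9.61, 14.98 and 9.97 in WT after prednisolone, at 6pm and at 6am. The next were chr2:160176783-160177082 with 39.7 and chr6:108043505-108043714 with 44.6 percentage points, both in mm9.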

How the data were processed

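GR and C/EBPβ peaks from ChIP-seq and GR borders from ChIP-exo of mouse liver were analysed. Per the labels, each list is a pool of 2 replicates. Bowtie, HOMER and mm9 are named in the submitters' processing notes, without roles, versions or thresholds. The deposited peak lists give the authors' score per peak. The deposited ChIP-exo lists give a tag count and an RPM value per border, and their ratio gave the library size. The authors' height signal was not used. Positions count from 1, taking the files' starts as counted from 0. Peak depth is unknown. RNA polymerase II and input samples were not analysed here.

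Peaks sharing at least 1 bp were joined. Poisson intervals and exact conditional intervals of ratios cover 95%. Regions in at least 2 lists, or with borders of at least 20 tags on both strands, were described in full. The members, lists and settings were chosen with earlier results of these data known. Overlaps, distances and intervals were tested on simulated data. The software was matplotlib 3.10.9, scipy 1.17.1, pandas 2.3.3, numpy 2.4.6 and Python 3.11.15. Alternatives were score cuts, equal list lengths, centre distances, tag minimums and search widths.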

Additional observations from a re-analysis of the deposited data

Results flagged for a closer look

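At region 17 the genotypes differed in direction between 6pm and 6am. The ratio of listed ChIP-exo tags in RPM, 6pm over 6am, was 3.41 in GRdim livers and 0.717 in WT livers. Each genotype had 1 library per time, and the difference was not tested. The GRdim library at 6am held 33 tags at this region over 2 borders, against 2112 tags over 17 borders in the WT library at 6am. At positions listed at both times the ratio was 3.90 in GRdim and 0.783 in WT.

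At region 7 the sums of listed tags differed in direction between conditions. The ratio of listed tags in RPM, GRdim over WT, was 1.84 after prednisolone and 0.312 at 6pm. The difference between the conditions was not tested. The counts were 76 tags in GRdim and 50 in WT after prednisolone, and 33 in GRdim and 104 in WT at 6pm. The sum after prednisolone ran over 6 borders in GRdim and 3 in WT. At the 2 positions listed in both genotypes after prednisolone the ratio was 0.969, with an interval of 0.568 to 1.64, and at the 1 position at 6pm 0.373, with an interval of 0.168 to 0.770, so that GRdim was not higher at the shared borders.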

How the results depend on the processing

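Over 32 results and 87 alternative values, 63 stayed within the limits of 1.5 times for counts or the counting interval for ratios, and 24 moved. With the higher-scoring 50% of each list, GRdim kept 1 peak of the window after prednisolone, 2 at 6pm and 0 at 6am. At an equal length of 3183 peaks per list the window held 2 peaks in GRdim and 7 in WT at 6pm, with 5 WT peaks absent from GRdim. With the higher-scoring 50% of C/EBPβ peaks, 5 WT GR peaks at 6pm and 1 at 6am held one. With borders of at least 20 tags, regions with a border numbered 2, 3 and 1 in GRdim after prednisolone, at 6pm and at 6am, and 9 and 7 in WT at 6pm and 6am. Taking the closest opposite borders 10 to 60 bp apart, which favours short distances by construction, the regions at 29 to 31 bp numbered 0 in WT after prednisolone, 0 at 6pm and 0 at 6am. Search widths of 60 and 200 bp for tag sums, and sums over positions listed in both libraries, were added after seeing the data. Within 60 bp the ratio of GRdim to WT was 0.0430 at region 14 at 6pm, 0.0433 at region 17 after prednisolone and 0.0188 at region 17 at 6am. Over positions listed in both it was 0.0677 at region 1 after prednisolone, 0.0993 at region 14 at 6pm, 0.162 at region 17 at 6pm, and 0.115 and 0.197 at region 19 after prednisolone and at 6pm.

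No paired analysis was possible because each condition was a pool of its replicates, and leaving out a replicate was not an option either. Borders with few tags, most of those in GRdim, limit the spacing measured there.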

Other observations

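Besides the regions, WT livers after prednisolone held 3 groups of borders with at least 20 tags on each strand that overlapped no GR peak of any list. No such group was found in the other 5 libraries. The group at chr17:28652549-28652654 had 6 borders with 145 tags, and its strongest borders, of 44 and 35 tags, lay 29 bp apart. The group at chr17:28659060-28659119 had 5 borders with 234 tags, and its strongest borders, of 81 and 64 tags, lay 30 bp apart. The group at chr17:28657616-28657770 had 10 borders with 207 tags, and its strongest borders, of 35 and 25 tags, lay 51 bp apart. All 3 lay between regions 15 and 19. They were chosen after the borders had been seen, with gaps of at most 60 bp within a group.

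Of the 255 borders of WT after prednisolone, 54.5% lay within 100 bp of the centre of a region, against 74.1% of those of WT at 6pm and 77.3% at 6am.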
